A study of Mus musculus with 6 samples.

Results

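Sox2, Foxj1, Aldh1a1 and Cyp2s1 are 4 genes linked to the epithelium of the conducting airways, and they were followed here in RNA from mouse lung tumours. They were found by their symbols, ignoring case, in a table of 10191 genes, and all 4 were present and passed the filter on low values. SD tumours (3 libraries) came from mice housed in SD cages and Ctrl tumours (3 libraries) from mice in home cages, for 20 hours a day over 7 weeks after a virus injection. Both groups share 1 engineered tumour model and the virus injection; the labels name neither the virus nor the cells it reached. The genotype labels of the 6 samples differ from each other in 1 number, while the design text gives a single genotype, and the libraries were treated as 1 genotype. The labels do not spell out SD; sleep deficiency is named in the title of the series. Nothing beyond the words for biological replicate says that the libraries came from separate animals, so the p-values describe variation among these 6 libraries, which may be technical.

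The airway tree and the alveoli are lined by different epithelia. SOX2 is a transcription factor that marks the proximal, airway-forming part of the developing lung and is kept in adult airway epithelium. FOXJ1 is the transcription factor that switches on the genes of motile cilia in multiciliated cells. ALDH1A1 oxidises retinaldehyde to retinoic acid and is abundant in the secretory (club) cells of the airway, and CYP2S1 is a cytochrome P450 of epithelia exposed to the outside, inducible through the aryl hydrocarbon receptor.

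Library totals ran from 6511192 to 7417095 reads, and 3 reads, used as a floor, came to 0.404 to 0.461 CPM (counts scaled to the same total in each library), for counting error only. Between SD and Ctrl, 56.6% of 10004 tested genes passed limma's test at an adjusted p of 0.05, 28.1% higher and 28.5% lower in SD. Of the 60 rows at the head of the table, 50 hold values that are not whole reads, almost all of them in SD libraries. Whole values numbered 10155, 10147 and 10150 of 10191 in SD replicates 1 to 3, against 10189, 10191 and 10190 in Ctrl replicates 1 to 3. All 59 tested genes of these 60 rows were higher in SD. The 60 rows include none of the 4 genes. All 4 genes do stand out of alphabetical order in the rest of the table, Cyp2s1 between PAWR and PAX6 for example. Of the 953 tested genes out of order there, 97.2% had at least a 2-fold higher mean CPM in SD, against 0.222% of the 8992 tested genes in order. The part of this row order in the results was not tested. The recovered reads of the 4 genes were whole in all 6 libraries. So were those of every gene after the first 60 rows, in order or not, so wholeness does not bear on the row order.

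The RefSeq table of gene starts on GRCm38.p6, the same assembly as mm10, held entries for 3 of the 4 genes, all but Foxj1. The 250 bases before each RefSeq start are shown because the genes moved in the same direction. The gene spans printed further below come from GENCODE, whose starts differ. By those spans the Cyp2s1 window lies inside the gene, and the Sox2 window ends at 34649994, ahead of the gene start at 34650405. In these windows, on both strands, a search was made for 7 short motifs. These were GCGTG (the core bound by the aryl hydrocarbon receptor), CACGTG (the E-box used by clock factors), GTTGCC (part of the X-box of RFX factors), TTACGTAA and TTATGTAA (D-boxes), GTAAACA (forkhead) and ACAAAG (SOX). Capitals mark a match.
Sox2, chr3:34649745-34649994, plus strand: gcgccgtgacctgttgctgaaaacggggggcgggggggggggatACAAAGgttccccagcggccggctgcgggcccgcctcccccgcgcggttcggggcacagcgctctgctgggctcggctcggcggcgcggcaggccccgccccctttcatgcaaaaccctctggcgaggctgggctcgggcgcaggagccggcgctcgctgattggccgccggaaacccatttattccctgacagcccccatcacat
Aldh1a1 upstream start, chr19:20492333-20492582, plus strand: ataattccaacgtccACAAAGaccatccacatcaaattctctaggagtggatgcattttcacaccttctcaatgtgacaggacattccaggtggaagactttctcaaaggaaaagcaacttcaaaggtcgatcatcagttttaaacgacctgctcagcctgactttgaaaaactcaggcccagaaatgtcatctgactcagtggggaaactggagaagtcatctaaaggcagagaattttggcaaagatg
Aldh1a1 downstream start, chr19:20601718-20601967, plus strand: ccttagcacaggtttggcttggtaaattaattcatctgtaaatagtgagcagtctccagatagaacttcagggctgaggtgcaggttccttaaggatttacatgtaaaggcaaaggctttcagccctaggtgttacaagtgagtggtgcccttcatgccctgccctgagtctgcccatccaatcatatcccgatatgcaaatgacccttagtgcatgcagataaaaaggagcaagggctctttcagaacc
Cyp2s1, chr7:25816526-25816775, minus strand: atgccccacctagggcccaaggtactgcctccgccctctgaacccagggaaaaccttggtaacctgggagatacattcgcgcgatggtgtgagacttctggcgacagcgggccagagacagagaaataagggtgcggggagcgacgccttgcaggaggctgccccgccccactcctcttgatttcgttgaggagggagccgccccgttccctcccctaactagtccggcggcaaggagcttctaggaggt
The sole match was ACAAAG, once in the Sox2 window and once in the window of the upstream Aldh1a1 start, at offsets of -206 and -235 from the start. That word occurred in 16.5% of the 32817 windows of this length in the table. The other words were not in these 4 windows. Over all windows the receptor core occurred in 28.1%, the E-box in 6.02%, the X-box part in 10.4%, the forkhead word in 3.16%, and the D-boxes in 0.113% (first form) and 0.817% (second form). The G and C content was 72.0% in the Sox2 window, 62.0% in the Cyp2s1 window, and 42.8% and 46.4% in the Aldh1a1 windows. The median was 52.4% over all windows.

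All 4 genes were higher in SD tumours than in Ctrl tumours, with every SD library above every Ctrl library. The share of all tested genes called higher was 28.1%, and 30.0% had every SD library above every Ctrl library. Sox2 had the largest ratio of the 4, and its ratio was reached or passed by 72 tested genes (0.720%). A ratio of at least 3 was reached by 3 of the 4 genes and by 4.03% of all tested genes. For Foxj1 that share was 2.52%, for Aldh1a1 3.77% and for Cyp2s1 5.25%. In bulk tissue, more cells of a type and more RNA per cell cannot be told apart, nor can fewer cells and less RNA per cell.

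**Figure D1:**
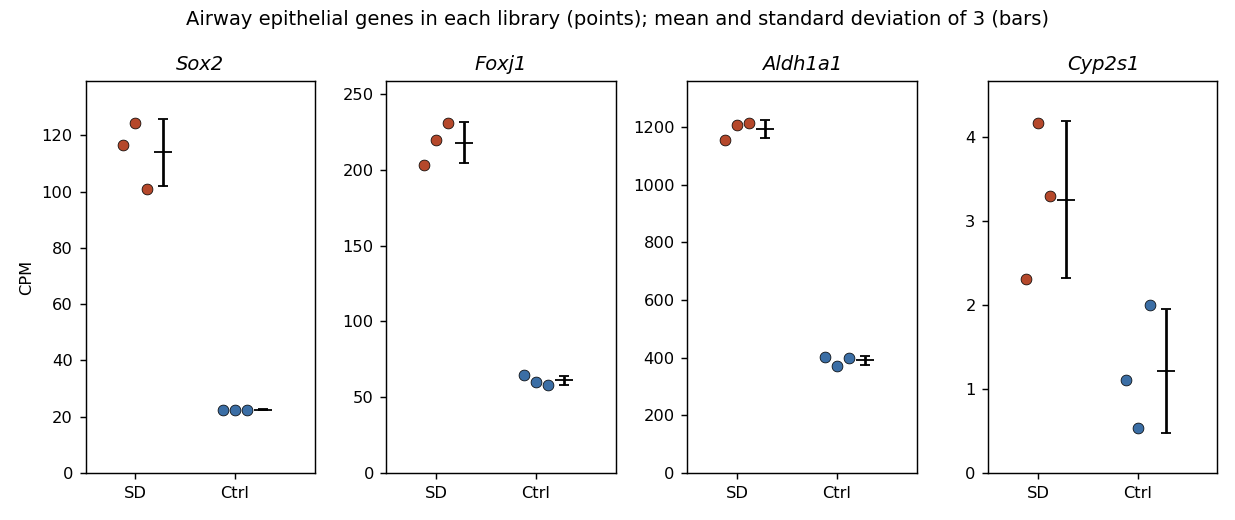
CPM of each gene (vertical axis, from 0) in the 3 SD libraries and the 3 Ctrl libraries, one point per library, with the mean and standard deviation beside them. The groups are far apart for Sox2, Foxj1 and Aldh1a1, while for Cyp2s1 the lowest SD library, at 2.30 CPM, is just above the highest Ctrl library, at 1.99 CPM.

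Per kilobase of exon, which allows levels of different genes to be compared, the order was Aldh1a1, Foxj1, Sox2 and Cyp2s1 in both groups. Aldh1a1 averaged 242 ± 6.34 CPM per kilobase in SD and 79.0 ± 3.36 in Ctrl (s.d., n = 3 each, as in all values below given with ±). Foxj1 followed at 83.2 ± 5.28 in SD and 23.3 ± 1.23 in Ctrl, and Sox2 at 55.4 ± 5.79 in SD and 10.9 ± 0.0811 in Ctrl. Cyp2s1 was far below them, at 0.658 ± 0.188 in SD and 0.246 ± 0.149 in Ctrl. Within a group, no library of one gene overlapped the libraries of the next gene in this order.

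Sox2 (ENSMUSG00000074637, 1 exon, mm10 chr3:34650405-34652461, plus strand) lies within an intron of the noncoding gene Sox2ot on the same strand and shares 0 exon bases with it. It had 117, 124 and 101 CPM in SD replicates 1 to 3, against 22.2, 22.5 and 22.5 CPM in Ctrl replicates 1 to 3. The lowest SD library was 4.49 times the highest Ctrl library. The means were 114 ± 11.9 CPM in SD and 22.4 ± 0.167 CPM in Ctrl, a 5.09-fold difference. On the log2(CPM + 1) scale, which understates changes of low genes, the difference was 2.29 ± 0.0972 (standard error; 95% interval 2.09 to 2.49; limma adjusted p = 9.2e-22). The spread over Ctrl libraries, 0.745% of the mean, was below the 7.86% that counting reads gives, whereas in SD it was 10.5% against 3.61% from counting. Replicate 3 was the lowest of the SD libraries, and the Ctrl libraries ran from 22.2 to 22.5 CPM.

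Sox2 belongs to a family of HMG-box transcription factors of which 11 of 20 listed genes had a row and were tested. Of these 11, 7 were higher in SD (63.6%), 2 lower (18.2%) and 2 did not pass, with a median log2 difference of 0.84. Over all tested genes the median was -0.01, with 28.1% higher and 28.5% lower. After Sox2, the members with the smallest p were Sox18 (230 ± 9.11 CPM in SD, 119 ± 6.97 in Ctrl), a factor of endothelial cells, Sox11 and Sox13. Sox11, a relative known from the developing nervous system, had 24.6, 26.8 and 30.0 CPM in SD libraries, against 7.04, 6.07 and 6.12 CPM in Ctrl libraries, a 4.24-fold difference (limma adjusted p = 4.4e-12). Sox4 and Sox12 went the other way, 1.34-fold and 1.48-fold lower in SD.

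Genes that pattern the airway and the distal lung moved in both directions. Of 35 tested genes on that list, 13 were higher in SD (37.1%), 16 lower (45.7%) and 6 did not pass, with a median of -0.12. Over all tested genes, 28.1% were higher and 28.5% lower, so genes of the whole table moved in both directions too. Irx1, an Iroquois factor of lung epithelium, had 97.7, 105 and 106 CPM in SD libraries, against 426, 412 and 430 CPM in Ctrl libraries, 4.10-fold lower (limma adjusted p = 1.4e-27). All 4 listed Iroquois genes (Irx1, Irx2, Irx3 and Irx5) were lower in SD. Fgfr2, the receptor through which FGF10 acts on distal epithelium, fell 2.09-fold to 139 ± 8.68 CPM in SD, against 290 ± 6.37 CPM in Ctrl. Hes1, a target of Notch signalling, rose to 296 ± 7.31 CPM in SD, against 157 ± 3.40 CPM in Ctrl (1.88-fold). The general lung epithelial factor Foxa1 stood at 83.4 ± 2.37 CPM in SD and 89.2 ± 5.65 in Ctrl (limma adjusted p = 0.30). Its relative Foxa2 fell to 83.5 ± 3.51 CPM in SD, against 133 ± 10.6 in Ctrl.

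Foxj1 (ENSMUSG00000034227, chr11:116330704-116335399, minus strand) shares no 50-base window of its transcripts with another annotated gene, and neither do Sox2 and Cyp2s1. It had 203, 220 and 231 CPM in SD libraries, against 64.6, 60.3 and 58.3 CPM in Ctrl libraries. The lowest SD library was 3.15 times the highest Ctrl library. The mean was 3.57-fold higher in SD (218 ± 13.9 CPM) than in Ctrl (61.0 ± 3.24 CPM), and the log2 difference was 1.82 ± 0.0705 (standard error; 95% interval 1.68 to 1.96; limma adjusted p = 5.0e-23). The spread was 6.35% of the mean in SD and 5.31% in Ctrl, beside 2.61% and 4.76% from counting reads.

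Structural genes of the motile cilium were higher with Foxj1. Of 39 listed motile ciliated cell genes, 27 had a row and were tested, Foxj1 among them. Of the other 26, 25 were higher in SD, 0 lower and 1, Spag17, did not pass (2.28 ± 0.266 CPM in SD, 1.93 ± 0.837 in Ctrl). Over all tested genes, 28.1% were higher and 28.5% lower in SD. The median log2 difference of the 26 ciliated genes was 1.62. Among them, Pifo, Ccdc40 and Enkur reached 1 CPM in SD libraries only. They passed the filter through SD alone and could not have been called lower. With any 1 SD library left out, 24 genes of the list, Foxj1 included, were tested, and 22 or 23 were higher. Tppp3, a tubulin-binding protein of ciliated cells, had 1003, 1018 and 997 CPM in SD libraries, against 269, 257 and 262 CPM in Ctrl libraries (3.83-fold, limma adjusted p = 2.2e-30). Dnah9, a heavy chain of the outer dynein arm, rose 4.77-fold to 62.4 ± 3.14 CPM in SD, against 13.1 ± 1.29 CPM in Ctrl. Rsph9, a radial spoke protein, rose 2.99-fold to 79.2 ± 1.93 CPM in SD, against 26.5 ± 1.40 CPM in Ctrl.

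Regulators that act around Foxj1 in multiciliated cells moved less uniformly. Of 11 tested, 5 including Foxj1 were higher in SD (45.5%, beside 28.1% of all tested genes), 0 lower and 6 did not pass, with a median of 0.12. Myb, a factor of early multiciliated differentiation that also serves blood cell precursors, had 21.3, 22.8 and 12.9 CPM in SD libraries, against 3.73, 3.64 and 6.27 CPM in Ctrl libraries (4.18-fold, limma adjusted p = 6.5e-09). Rfx3 and Rfx2, partners of FOXJ1 at ciliary promoters, rose 1.79-fold and 1.77-fold. The centriole genes Plk4 and Sass6 were at 7.15 ± 1.77 and 1.07 ± 0.964 CPM in SD, against 9.13 ± 0.419 and 1.62 ± 0.530 CPM in Ctrl, and neither passed.

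Aldh1a1 (ENSMUSG00000053279, chr19:20492715-20643465, plus strand) was the most abundant of the 4. It had 1156, 1207 and 1213 CPM in SD libraries, against 402, 371 and 397 CPM in Ctrl libraries. The lowest SD library was 2.88 times the highest Ctrl library. The mean was 3.06-fold higher in SD (1192 ± 31.3 CPM) than in Ctrl (390 ± 16.6 CPM), and the log2 difference of 1.61 ± 0.0427 had the smallest standard error of the 4 (95% interval 1.52 to 1.70; limma adjusted p = 2.9e-28). Its close paralog Aldh1a7 was not analysed here. Of the distinct 50-base windows of Aldh1a1 transcripts, 3.06% (151 of 4934) were also found in Aldh1a7 and in no other gene, so a small part of the reads could belong to either.

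Other secretory cell markers were mostly higher as well. Of 28 listed, 12 had a row, and of the 9 tested besides Aldh1a1 and Cyp2s1, 6 were higher in SD, 1 lower and 2 did not pass, with a median of 0.87. Over all tested genes, 28.1% were higher and 28.5% lower. Among the 6 higher, Bpifa1, Lypd2 and Agr2 rest on few reads, with Ctrl means of 1.76, 2.17 and 1.33 CPM. The 10 with a row summed to 1431 to 1454 CPM in SD and 1132 to 1249 CPM in Ctrl, of which Selenbp1 made up 45.6% in SD and 83.1% in Ctrl. Without it, an alternative chosen after seeing the data, the sum was 771 to 802 CPM in SD and 197 to 203 CPM in Ctrl. Cyp4b1, a P450 abundant in rodent lung, had 721, 730 and 716 CPM in SD libraries, against 169, 174 and 178 CPM in Ctrl libraries (4.15-fold, limma adjusted p = 6.4e-30). Gabrp, a subunit of a GABA receptor, rose 2.56-fold to 26.7 ± 3.51 CPM in SD, against 10.4 ± 1.28 CPM in Ctrl. Selenbp1, a selenium-binding protein, was the exception, 1.49-fold lower in SD at 658 ± 5.67 CPM against 982 ± 58.6 CPM in Ctrl. Scgb1a1 and Scgb3a2, the secretoglobins that define club cells, were not analysed here, so the secretory label rests on the markers that had a row.

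In the retinoid pathway, 15 genes were tested, of which 9 including Aldh1a1 were higher in SD, 2 lower and 4 did not pass (median 0.59). The shares were 60% higher and 13.3% lower, beside 28.1% and 28.5% of all tested genes. Rarg, a retinoic acid receptor, had 209, 247 and 223 CPM in SD libraries, against 118, 115 and 106 CPM in Ctrl libraries (log2 difference 0.99, limma adjusted p = 6.1e-16). Dhrs3, which reduces retinaldehyde back to retinol, fell 1.78-fold to 95.9 ± 6.93 CPM in SD, against 170 ± 6.54 CPM in Ctrl. Aldh1a2, another enzyme that makes retinoic acid, also fell, to 2.19 ± 0.407 CPM in SD, against 4.70 ± 0.968 CPM in Ctrl. Without Ctrl replicate 2, only 1 gene of the list was called lower. Adh7, a retinol-oxidising dehydrogenase, had the largest ratio of the list, 4.63-fold. It is 1 of the 60 genes at the head of the table, of which all 59 tested were higher in SD. Without Adh7, 8 of 14 were higher. The third enzyme of the Aldh1a group, Aldh1a3, did not reach the filter (0.939 ± 0.768 CPM in SD, 0.656 ± 0.581 in Ctrl).

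Aldehyde dehydrogenases went in both directions. Of 14 tested genes, 3 including Aldh1a1 were higher in SD (21.4%), 6 lower (42.9%) and 5 did not pass, with a median of -0.31. Over all tested genes, 28.1% were higher and 28.5% lower, so the family's share of genes called higher was near that of all genes. The risers besides Aldh1a1 were Aldh3a1, at 8.60, 12.5 and 9.56 CPM in SD libraries, against 2.35, 2.29 and 2.28 CPM in Ctrl libraries (4.43-fold, limma adjusted p = 1.0e-07), and Aldh3b1 (17.4 ± 3.96 CPM in SD, 10.8 ± 3.27 CPM in Ctrl), whose groups overlapped. Aldh1l1, an enzyme of folate metabolism, and Aldh9a1 fell 2.36-fold and 2.17-fold.

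Cyp2s1 (ENSMUSG00000040703, chr7:25802475-25816913, minus strand) was close to the limit of what these libraries measure. It had 15, 29 and 22 reads in SD libraries, against 8, 4 and 14 reads in Ctrl libraries, 66 against 26 in all. In CPM these were 2.30, 4.16 and 3.29 in SD and 1.10, 0.539 and 1.99 in Ctrl. The exact 95% Poisson interval of SD replicate 1, 1.29 to 3.80 CPM, and that of Ctrl replicate 3, 1.09 to 3.35 CPM, overlap, and they cover counting error only. The mean was 2.68-fold higher in SD (3.25 ± 0.929 CPM) than in Ctrl (1.21 ± 0.733 CPM), with a log2 difference of 0.97 ± 0.309 (standard error; 95% interval 0.35 to 1.60; limma adjusted p = 0.0073). Without Ctrl replicate 2 the gene did not pass (log2 difference 0.74, limma adjusted p = 0.066). The lncRNA Gm26707 on the opposite strand covers 5.26% of its exon bases (260), and since no strand setting is given, reads there could come from either gene.

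Of the CYP2 family and its electron donors, 5 of 24 listed genes had a row. Of these 5, 4 were higher in SD (80%) and 1 lower (20%), beside 28.1% and 28.5% of all tested genes. The median of 0.97 is Cyp2s1 itself. Cyp2e1, a P450 of small solvents, had 7.22, 3.30 and 6.43 CPM in SD libraries, against 1.24, 0.539 and 1.85 CPM in Ctrl libraries (4.66-fold, limma adjusted p = 2.8e-05). Por, the reductase that supplies electrons to microsomal P450s, rose 1.25-fold to 161 ± 3.40 CPM in SD, against 128 ± 3.60 CPM in Ctrl. Cyb5a, which is 1 of the 60 genes at the head of the table and holds values that are not whole reads, was 2.13-fold higher. Cyp2r1, a vitamin D hydroxylase, was 1.69-fold lower, and it lost that call without SD replicate 1, SD replicate 3, Ctrl replicate 2 or Ctrl replicate 3 and under DESeq2.

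Around the aryl hydrocarbon receptor, the receptor gene itself did not pass. Ahr was at 3.37 ± 0.843 CPM in SD and 3.96 ± 0.471 CPM in Ctrl (limma adjusted p = 0.55), and its partner Arnt at 73.7 ± 3.76 and 68.2 ± 1.69 CPM (limma adjusted p = 0.27). Of 12 tested genes of this pathway, 7 including Cyp2s1 were higher in SD, 2 lower and 3 did not pass (median 0.68). The shares were 58.3% higher and 16.7% lower, beside 28.1% and 28.5% of all tested genes. Without Ptges3, which stands among the 60 genes at the head of the table, 6 of 11 were higher and the median was 0.39. Cyp1a1, the most used readout of the receptor, had 7.83, 8.90 and 12.4 CPM in SD libraries, against 4.28, 3.64 and 2.42 CPM in Ctrl libraries (2.82-fold, limma adjusted p = 3.2e-05). Gsta1, a glutathione transferase, rose 2.47-fold to 19.1 ± 3.03 CPM in SD, against 7.75 ± 0.172 CPM in Ctrl. Tiparp, another target, was at 58.9 ± 3.30 CPM in SD and 65.9 ± 8.49 CPM in Ctrl and did not pass, and Nfe2l2 and Hsp90ab1 were 1.25-fold and 1.20-fold lower in SD.

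**Figure D2:**
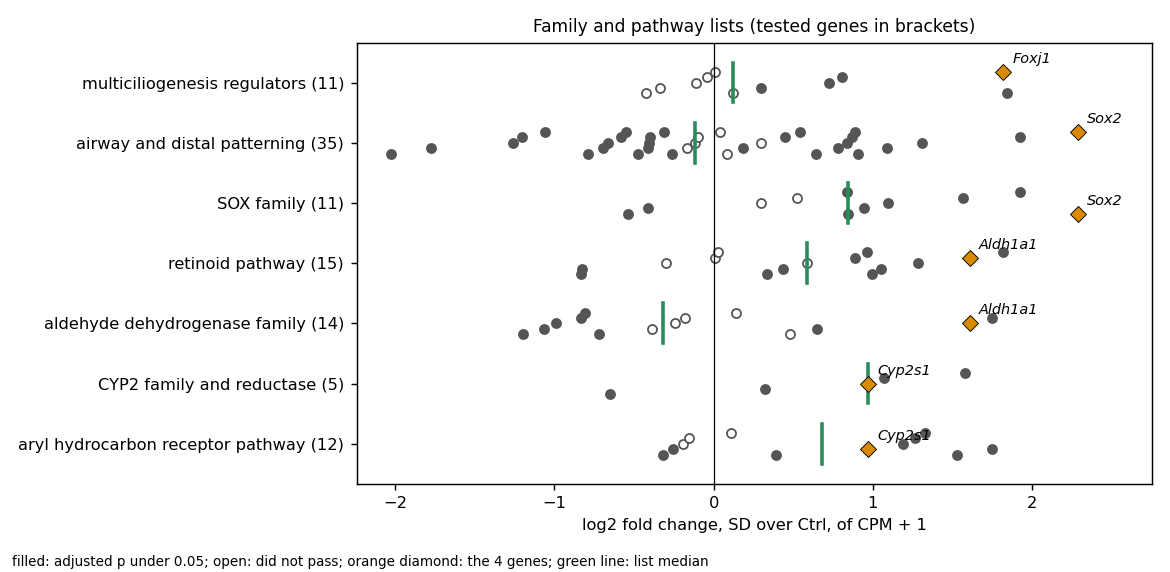
Log2 fold change of CPM + 1, SD over Ctrl (horizontal axis), of each tested gene in 7 family and pathway lists, with filled points past the threshold, open points not, the 4 airway genes as orange diamonds and the list median as a green line. Sox2 is the rightmost point of the SOX family, at 2.29, and Aldh1a1 is on the opposite side of 0 from the median of its own family, -0.31.

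The 4 genes were also set against marker sums within each library, which removes library-wide scaling. The ratios are given without a p. An exact permutation test over libraries has a smallest p of 0.10 with 3 against 3, and none was run. Foxj1 amounted to 13.5%, 14.5% and 15.5% of the summed CPM of the other 26 motile ciliated genes in SD libraries, against 16.2%, 15.6% and 14.9% in Ctrl libraries. These ranges overlap, while the sum itself was 1495 to 1516 CPM in SD and 385 to 397 CPM in Ctrl. Tppp3 alone made up 66.8% of the sum in SD and 67.1% in Ctrl. Without Tppp3, an alternative chosen after seeing the data, Foxj1 was 40.03% to 46.5% of the other 25 genes in SD and 45.1% to 50.2% in Ctrl, which again overlap. Sox2 was a larger part of the same sum in SD, 6.76% to 8.20%, than in Ctrl, 5.59% to 5.84%, with no overlap. Aldh1a1 was a smaller part in SD, 76.5% to 81.2%, than in Ctrl, 96.3% to 101%, again with no overlap. For Cyp2s1 the ranges were 0.152% to 0.274% in SD and 0.140% to 0.510% in Ctrl. Without Tppp3 the ranges of Sox2 and of Aldh1a1 still did not overlap, with Sox2 at 20.3% to 24.99% in SD and 17.3% to 17.5% in Ctrl, and Aldh1a1 at 227% to 244% in SD and 289% to 312% in Ctrl.

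**Figure D3:**
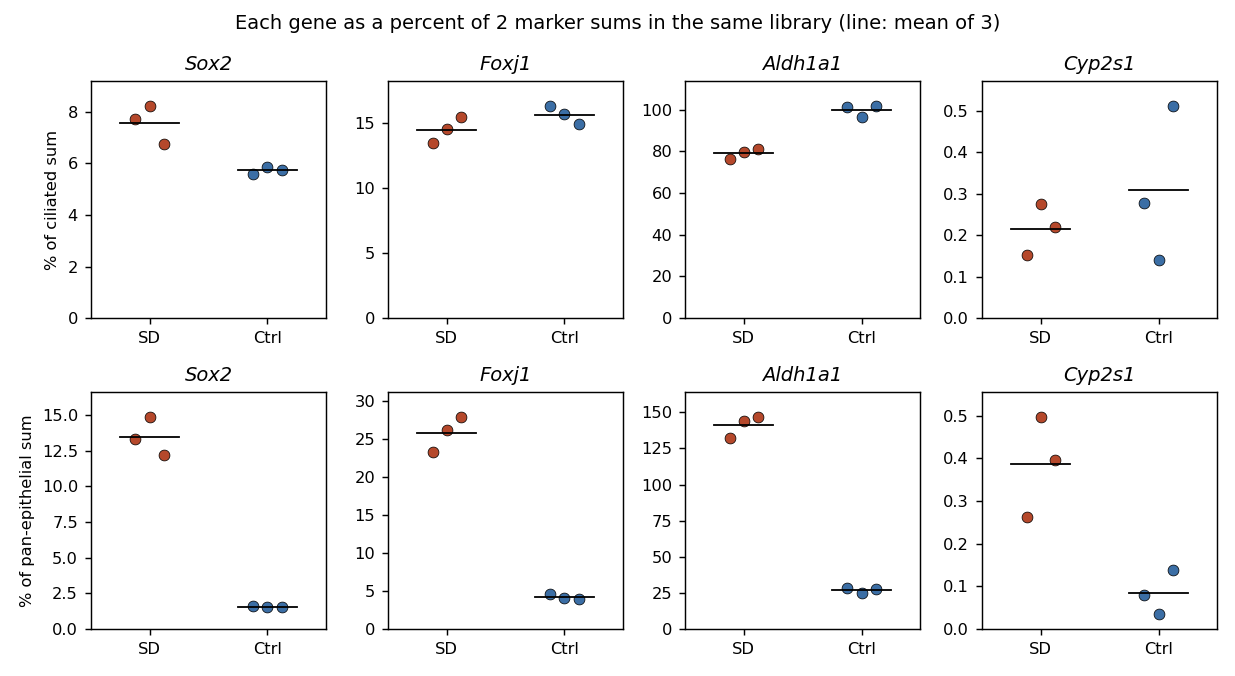
Each gene as a percent (vertical axes, from 0) of the summed CPM of 26 other motile ciliated genes (upper row) or of 19 pan-epithelial genes (lower row) in the same library, one point per library and a line at the mean of 3. Foxj1 sits at 13.5% to 15.5% of the ciliated sum in SD and 14.9% to 16.2% in Ctrl, while all 4 genes are a larger percent of the pan-epithelial sum in SD.

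Genes that all lung epithelia share did not rise with the 4. Of 19 tested pan-epithelial genes, 0 were higher in SD, 16 lower (84.2%) and 3 did not pass, with a median of -0.80. Over all tested genes, 28.1% were higher and 28.5% lower. The summed level of the 19 genes was 827 to 874 CPM in SD and 1405 to 1497 CPM in Ctrl. Epcam, a surface adhesion protein of epithelia, had 5.07, 3.16 and 8.97 CPM in SD libraries, against 10.5, 11.3 and 9.26 CPM in Ctrl libraries (1.81-fold lower, limma adjusted p = 0.0037). Cdh1, the epithelial cadherin, fell 2.36-fold to 6.09 ± 1.79 CPM in SD, against 14.3 ± 2.92 CPM in Ctrl. Among the smallest p, Cldn3 fell 2.21-fold and the keratins Krt7, Krt8 and Krt18 fell 1.95-fold, 1.75-fold and 2.48-fold. Sox2 therefore amounted to 12.2% to 14.9% of the pan-epithelial sum in SD, against 1.50% to 1.58% in Ctrl, an 8.72-fold difference of the mean ratio. The same quotient was 6.13 for Foxj1, 5.24 for Aldh1a1 and 4.60 for Cyp2s1.

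Markers of the other epithelial cells of the lung differed in direction, as did all tested genes, with 28.1% higher and 28.5% lower in SD. All 9 tested alveolar type 2 genes were lower in SD, with a median of -2.22 and a summed level of 1387 to 1462 CPM in SD and 5031 to 5553 CPM in Ctrl. Sftpc, the surfactant protein that defines type 2 cells, had 1176, 1219 and 1144 CPM in SD libraries, against 4144, 3730 and 4226 CPM in Ctrl libraries. Of 13 alveolar type 1 genes, 6 were higher, 6 lower and 1 did not pass, with sums of 5070 to 5077 CPM in SD and 3704 to 3735 CPM in Ctrl. Vegfa, a growth factor of blood vessels that other cells make too, was 2.45-fold higher and made up 43.1% of the sum in SD and 24.0% in Ctrl. Cav1, also among the 6 higher, is 1 of the 60 genes at the head of the table and holds values that are not whole reads. Without Vegfa and Cav1, an alternative chosen after seeing the data, the other 11 genes summed to 2109 to 2124 CPM in SD and 2458 to 2512 CPM in Ctrl, so the direction of the sum turned. Of the airway basal list, 3 of 10 genes had a row. Krt5, a basal cell keratin, passed as higher with overlapping groups (24.0 ± 2.16 CPM in SD, 18.1 ± 5.94 in Ctrl, limma adjusted p = 0.028), and lost that call without SD replicate 2, SD replicate 3, Ctrl replicate 1 or Ctrl replicate 2 and under DESeq2. Trp63, the defining factor of basal cells, was not analysed here.

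Neuroendocrine cells are the rare airway cells that make neuropeptides, and 6 of 12 listed markers had a row. Of these 6, 4 were higher in SD, 0 lower and 2 did not pass, beside 28.1% higher and 28.5% lower over all tested genes. Scg5 reached 1 CPM in SD libraries only. It passed the filter through SD alone and could not have been called lower. The 6 genes summed to 47.9 to 50.7 CPM in SD and 14.1 to 19.4 CPM in Ctrl. Uchl1, a deubiquitinase also found in neurons, had 29.5, 31.1 and 26.2 CPM in SD libraries, against 4.14, 8.49 and 5.41 CPM in Ctrl libraries (4.81-fold, limma adjusted p = 4.3e-12). Without Uchl1, left out after seeing the data, the sum was 18.4 to 22.4 CPM in SD and 9.12 to 10.9 CPM in Ctrl. Only 2 were called higher without SD replicate 3 or without Ctrl replicate 3. Of the tuft cell and ionocyte list 2 of 11 genes had a row, and Dclk1 fell 4.58-fold to 1.40 ± 0.719 CPM in SD, against 6.42 ± 0.758 CPM in Ctrl.

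Sox2 is also a factor of glia, so glial and Schwann cell markers are given beside it. Of 10 listed, 5 had a row, 2 of them higher in SD (40%), 2 lower (40%) and 1 not passing. Over all tested genes, 28.1% were higher and 28.5% lower. The sum of the 5 was 33.6 to 36.4 CPM in SD and 86.6 to 96.4 CPM in Ctrl. Erbb3, a receptor that epithelial cells carry too, made up 53.7% of the sum in SD and 82.1% in Ctrl (18.7 ± 3.23 CPM in SD, 76.3 ± 2.52 in Ctrl). Without it, left out after seeing the data, the sums overlapped, at 11.98 to 18.98 CPM in SD and 12.8 to 20.2 CPM in Ctrl. Without SD replicate 2 or SD replicate 3, 1 was called higher. Mbp, a myelin protein, was at 2.72 ± 0.678 CPM in SD and 9.54 ± 3.01 CPM in Ctrl. The glial factor Sox10 was not analysed here, and the part of glial RNA in the Sox2 result was not tested.

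**Figure D4:**
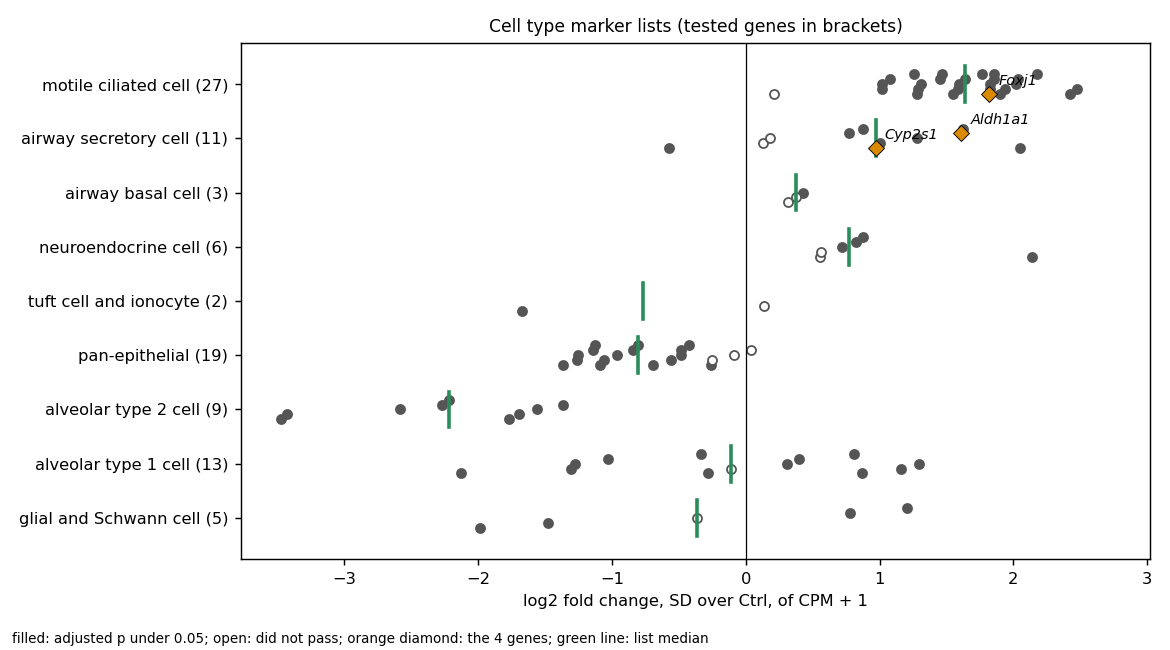
Log2 fold change of CPM + 1, SD over Ctrl (horizontal axis), of each tested gene in 9 cell type marker lists, with filled points past the threshold, open points not, Foxj1, Aldh1a1 and Cyp2s1 as orange diamonds and list medians as green lines. The motile ciliated list lies wholly above 0 (median 1.64), the alveolar type 2 list wholly below it (median -2.22), and the pan-epithelial list has its median at -0.80.

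The genes most like each of the 4 were sought among 7970 tested genes with a mean of at least 5 CPM, by the smallest root mean square difference between profiles of log2(CPM + 1) over the 6 libraries, each centred on its own mean. For Sox2 they were Nr1d1 (0.0638), a clock repressor, Ramp2 (0.0853), a receptor partner of endothelial cells, and Fibin (0.0881). For Foxj1 they were Pdgfra (0.0402), a growth factor receptor of fibroblasts, Hlf (0.0577), a clock output factor, and Sox11 (0.0654). For Aldh1a1 they were Acvrl1 (0.0425), an endothelial receptor of the TGF-beta family, Ppp1r16b (0.0430) and Sept4 (0.0458). For Cyp2s1 the differences were wider, 0.166 for Osr1, 0.177 for Klf2 and 0.187 for Adck2. The direction and the approximate size of the difference of these 12 genes were fixed by the choice.

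**Figure D5:**
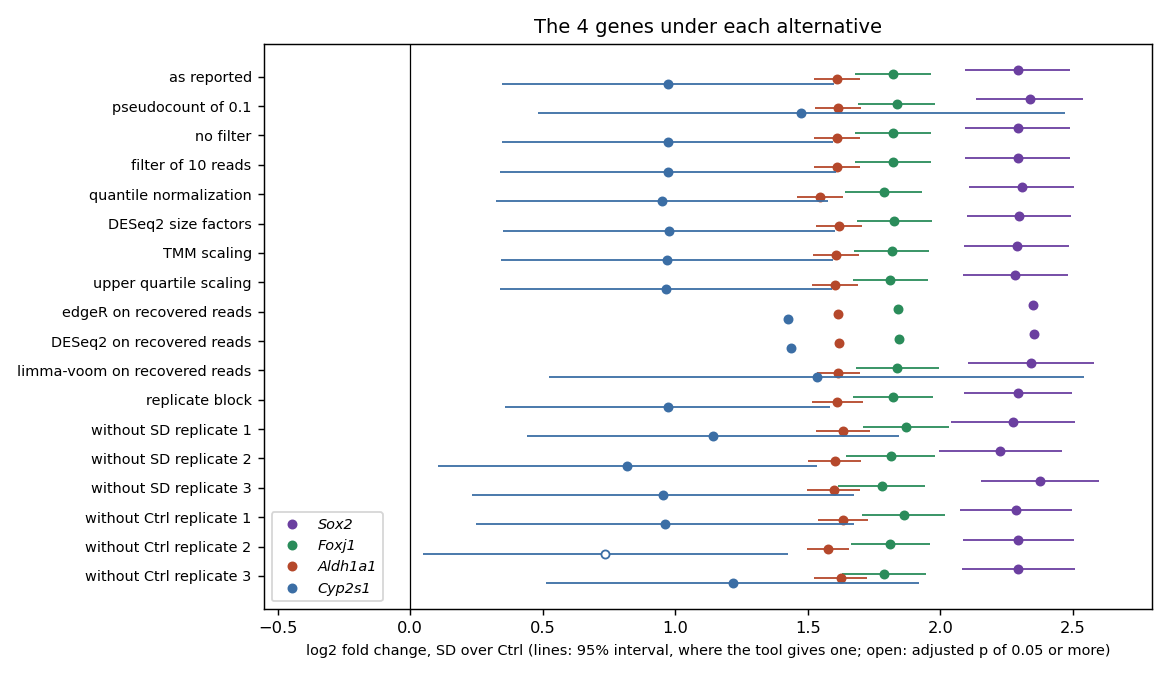
Log2 fold change, SD over Ctrl (horizontal axis), of the 4 genes as reported and under 17 alternatives, with 95% intervals where drawn and open points where the adjusted p was 0.05 or more. All points lie above 0, and the single open point is Cyp2s1 without Ctrl replicate 2, at 0.74.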

How the data were processed

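The 6 mouse lung tumour libraries were made with a NEBNext Ultra kit from 1.5 ug of TRIzol-extracted RNA, per the labels' protocols. HISAT2 2.0.5, featureCounts 1.5.0-p3 and mm10 are named in the submitters' processing notes, without order, settings or strand. The authors deposited a CPM table of 10191 genes, per the file headers; no source used here gives the rule for including a gene. Values were multiples of 1 step per column, so whole reads were recovered for 99.8% of values (tolerance 0.01 read). A minimum of 1 CPM in 3 or more libraries left 10004 genes, tested with limma 3.58.1 (trend, group only) on log2(CPM + 1), with Benjamini-Hochberg adjustment over all of them and a threshold of 0.05. The fit was tested on simulated data. Alternatives included edgeR 4.0.16 and DESeq2 1.42.0 on the rounded reads. Gene lists are described by counts and medians, without a test. Names came from GENCODE M21, which also gave exon lengths. Named were the 4 genes, up to 4 genes per list with the smallest p, up to 3 called against a list's majority, Epcam, Cdh1, Aldh1a7 and the 3 most similar profiles per gene. Outside this rule, and with their values already known, Foxa1, Foxa2, Irx2, Irx3, Irx5, Spag17, Pifo, Ccdc40, Enkur, Plk4, Sass6, Bpifa1, Lypd2, Agr2, Scg5, Adh7, Aldh1a3, Ahr, Arnt, Cyp1a1 and Tiparp were named. The 4 genes and the lists were chosen with earlier results of these data known. Rows out of order were those outside the longest alphabetical run after row 60. Some items named by this rule, and the allele of the tumour model, are not reported here.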

Additional observations from a re-analysis of the deposited data

How the results depend on the processing

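Of 68 pairs of a gene among the 4 and an alternative, 67 kept direction and call. The other was Cyp2s1 without Ctrl replicate 2, where a log2 difference of 0.74 had a limma adjusted p of 0.066; over the 6 runs that left out a library its difference ran from 0.74 to 1.22 and its adjusted p from 0.0038 to 0.066. The library left out has the lowest Cyp2s1 value; the cause was not tested. Over the same runs Sox2 ran from 2.23 to 2.38, Foxj1 from 1.78 to 1.87 and Aldh1a1 from 1.57 to 1.63. Over the other 11 alternatives Cyp2s1 ran from 0.95 to 1.53 (1.48 with a pseudocount of 0.1, 1.43 with edgeR, 1.44 with DESeq2 and 1.53 with limma-voom), and Sox2 from 2.28 to 2.35. The count of changed genes ran from 5032 to 5685 around 5667. Deviations of same-numbered libraries correlated at -0.00744, -0.0189 and 0.0124, so no deviation shared by replicate number was seen. That cannot settle whether the libraries were paired by design. With the replicate block 5603 genes changed, Sox2 stayed at 2.29 and Cyp2s1 at 0.97 (limma adjusted p = 0.0053). Of 544 pairs of a list count and an alternative, 15 moved by more than 1.5 times, all for counts of 4 or fewer genes. At this depth a gene near 1 CPM, such as Cyp2s1 in Ctrl, rests on few reads, here 4 to 14 per library.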

Other observations

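The row order of the table goes with whether the SD to Ctrl ratio reaches about 2. After the first 60 rows, symbols run in alphabetical order except for a set of rows, and among tested genes outside the first 60 rows 100% of the 615 with a ratio of mean CPM of 2.5 or more were out of order, as were 94.0% of the 331 between 2 and 2.5. Among the 881 with a ratio between 1.5 and 2 the share was 1.25%, and among the 878 below 0.5 it was 0.228%. Sox2 stood between SLC35E4 and SLC35F5, Foxj1 between FAM214B and FAM219A and Aldh1a1 between ADPRM and ADRB1. How the order came about, and whether it bears on the values, was not tested.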
